A study of Mus musculus with 24 samples.

Results

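Potassium channel genes, those whose symbol begins with Kcn, were examined in the cerebellum of male C57BL/6J mice, an inbred strain, at 7 and 79 weeks of age. RNA was taken with Trizol and sequenced with a Universal Plus mRNA-Seq kit in 2 libraries per age, and the labels state no transgene, deletion or treatment. The other 20 of the 24 samples in the series are genomic libraries for cytosine methylation and hydroxymethylation and were not analysed here. Whether each library came from its own mouse is not stated, so p-values measure the spread between libraries, which may be technical. Of 97 Kcn genes named in the count tables, 72 were chosen by their read counts, 10 or more in at least 2 of the 4 libraries, and form the set described, out of 37991 gene identifiers. Kcnj13 and Kcne2 were left out by name, and 23 genes fell short of the counts. The set holds 33 voltage-gated genes, 8 inward rectifiers, 10 two-pore genes, 7 calcium-activated genes (counting the sodium-activated and related Slo genes), 12 auxiliary subunits and 2 antisense transcripts, Kcnd3os and Kcnmb4os2, that fit no class.

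Potassium channels let potassium leave the cell and so pull the membrane potential back down. Voltage-gated channels open on depolarization and repolarize the action potential, inward rectifiers and two-pore channels set the resting potential, and calcium-activated channels shape the pause after a spike. Auxiliary subunits do not form the pore but alter gating, trafficking or surface level. In the cerebellum fast-spiking Purkinje cells and granule neurons depend on these currents, and mutations of several of the genes cause ataxia in humans.

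The count threshold chose the members by level and not by the difference between ages. All 72 members also passed the low-count filter of the age test, and 63 of them had 10 or more counts in all 4 libraries. Among the other 9 no member passed through the libraries of only 1 age. Just inside the threshold, Kcnmb1 had 9 and 16 counts at 7 weeks and 16 and 8 at 79 weeks. Just outside it, Kcng2 had 5 and 14 counts at 7 weeks and 9 and 5 at 79 weeks.

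The libraries held 16367656 to 22826993 gene counts, so a gene with 0 counts could have reached between 0.130 and 0.187 CPM, a limit for counting error only. CPM are counts per fixed library size, after TMM scaling, a correction for library composition. The granule neuron gene Gabra6 stood at 888 and 869 CPM at 7 weeks and 591 and 592 CPM at 79 weeks, and the Purkinje cell gene Pcp2 at 386 and 367 CPM at 7 weeks and 351 and 379 CPM at 79 weeks, so defining markers of both cerebellar neurons were present. The library of 79-week replicate 1 stood apart in markers of the choroid plexus, the epithelium that makes cerebrospinal fluid. Summed over 12 such markers the level was 6800.0 CPM there, against 159.9 and 175 CPM at 7 weeks and 169 CPM in 79-week replicate 2. Most of the sum in the other libraries was Enpp2, at 142 and 144 CPM at 7 weeks and 129 CPM in 79-week replicate 2. Ttr stood at 5061 CPM in 79-week replicate 1, against 0.187 and 0.434 CPM at 7 weeks and 2.16 CPM in 79-week replicate 2. Kcnj13, a choroid plexus rectifier, followed the sum, at 0.436 and 1.25 CPM at 7 weeks and 23.8 and 1.43 CPM at 79 weeks. It was not called in edgeR (adjusted p = 0.0888). Of the 12 markers 7 could be tested and 0 were called. Kcne2 had 1 and 0 counts at 7 weeks and 387 and 2 at 79 weeks.

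More potassium channel genes were lower than higher in old cerebellum. In edgeR's quasi-likelihood test, with Benjamini-Hochberg adjustment over all 15292 genes tested, 18 of the 72 fell, 2 rose and 52 were not called at an adjusted p of 0.05. The share lower was 25.0%, against 4.68% of all genes tested, and the share higher was 2.78%, against 4.17%. Called genes in either direction made up 27.8% of the members and 8.84% of all genes. Ages did not overlap in 46 members, or 63.9%, which is near the 57.7% of all genes tested. Of these 46, 33 were lower at 79 weeks (45.8% of members against 28.7% of all genes) and 13 higher (18.1% against 29.1%). Among the 52 uncalled members, 15 were lower and 11 higher without overlap. The median log2 fold change of members was -0.22, beside 0.0099 over all genes. With a library left out, in edgeR or DESeq2, the member median ranged from -0.20 to -0.11, smaller in size in every such fit. In bulk tissue, fewer cells of a type and less RNA per cell cannot be told apart. The count of calls depended on single libraries: without 7-week replicate 1 edgeR called 0 members, while 26 had an unadjusted p under 0.05 and DESeq2 called 7. Leaving out 7-week replicate 2 gave 6 calls in edgeR and 12 in DESeq2. With 79-week replicate 1 left out edgeR called 24, among them 18 of the 20, and DESeq2 called 11. With 79-week replicate 2 left out edgeR called 24, among them all 20, and DESeq2 called 14, among them 13 of the 20.

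Most calls were among genes with many reads. CPM depend on transcript length as well as expression, so genes were sorted by them only as a measure of counting precision. Of 20 members with a mean of 100 CPM or more, 11 fell and 0 rose, a share called of 55.0% against 19.4% of all genes in that range. Of 19 members from 10 to below 100 CPM, 5 fell and 2 rose, or 36.8% against 8.68%. Among the 33 members below 10 CPM 2 fell and 0 rose, or 6.06% against 3.80%. The median log2 fold change of members was -0.31 in the top range, where that of all genes was -0.076, -0.026 from 10 to below 100 CPM, where that of all genes was -0.0019, and 0.043 below 10 CPM, where that of all genes was 0.16.

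**Figure D1:**
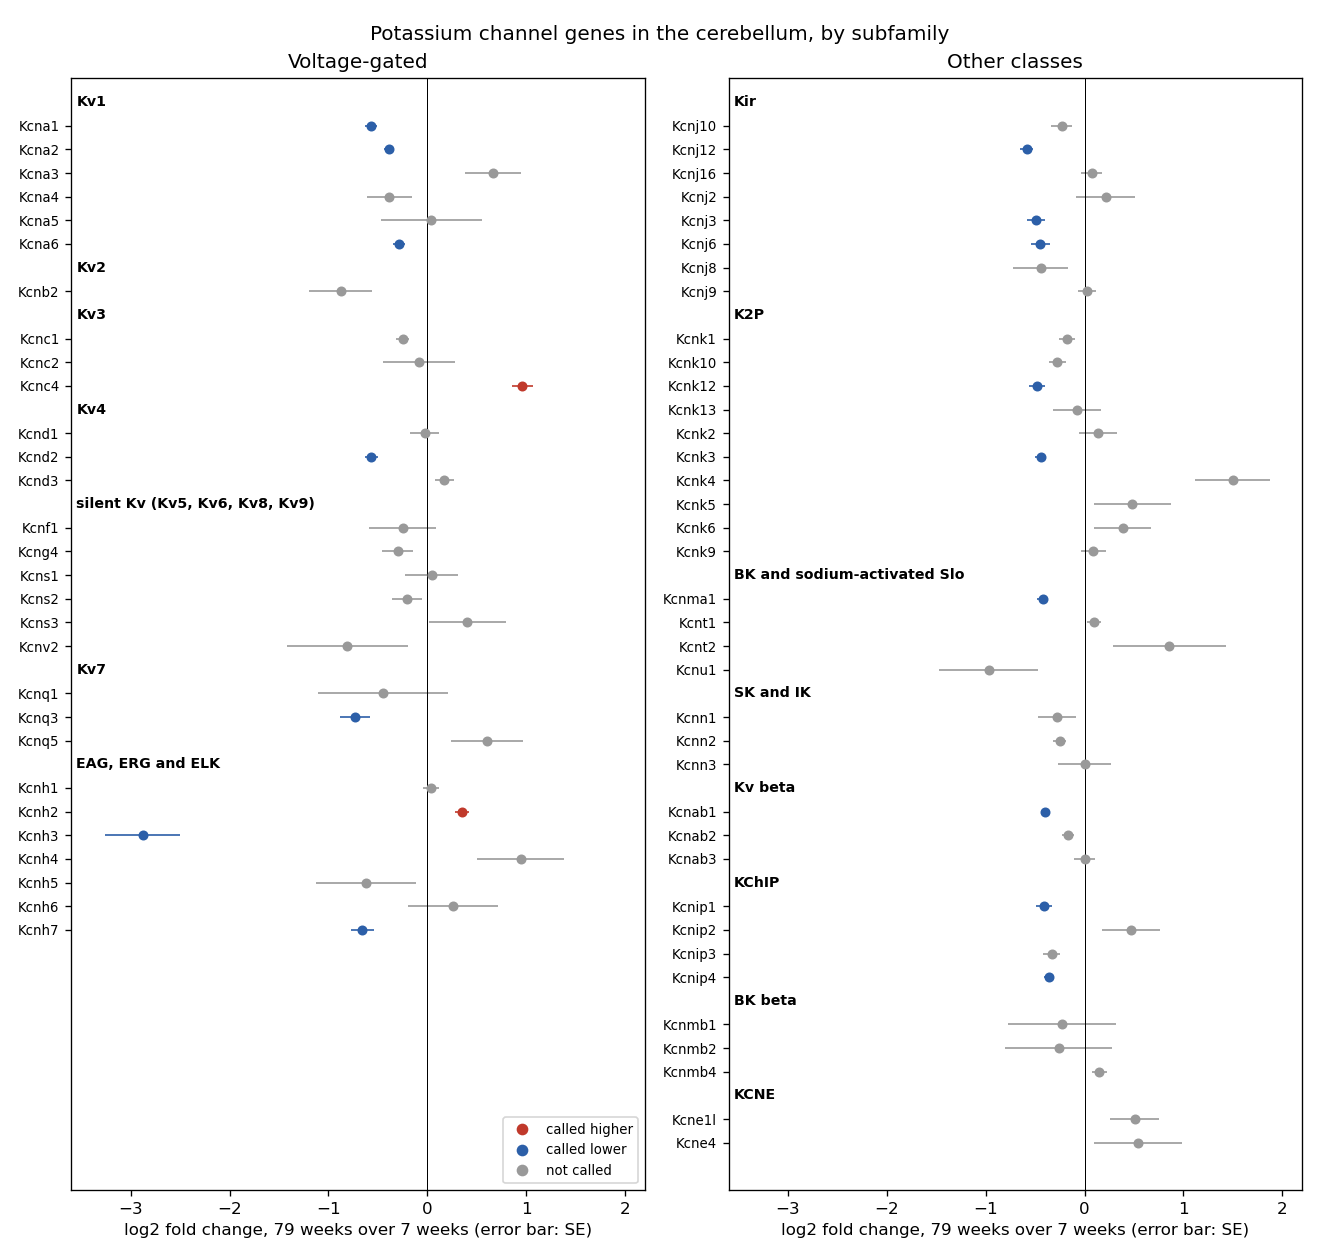
Log2 fold change (79 over 7 weeks, horizontal axis) of 66 of the potassium channel genes by subfamily, with bars for the standard error derived from edgeR's F statistic, at 2 libraries per age. Blue points mark 16 genes called lower and red points the 2 called higher, and Kcnh3 lies farthest to the left at -2.88.

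By class, calls were 9 lower and 2 higher of 33 voltage-gated genes, 3 lower and 0 higher of 8 inward rectifiers, 2 lower and 0 higher of 10 two-pore genes, 1 lower and 0 higher of 7 calcium-activated genes, and 3 lower and 0 higher of 12 auxiliary genes. The shares lower were 27.3%, 37.5%, 20.0%, 14.3% and 25.0% in that order, and 6.06% of the voltage-gated genes were higher. Over all genes tested 4.68% were lower and 4.17% higher, and of those at 100 CPM or more 15.3% were lower. Neither antisense transcript was called. Median log2 fold changes were -0.25, -0.34, 0.0054, -0.25 and -0.20 in the same order. Where members under 10 CPM are set aside, the medians of all 5 classes lay below 0, at -0.27, -0.34, -0.23, -0.25 and -0.33. No difference between classes was tested. In single libraries the rectifier median stood -0.41 and -0.12 log2 units from the 7-week mean in 79-week replicates 1 and 2. The voltage-gated median stood at -0.24 and -0.16, and the two-pore median at -0.14 and 0.056. Without 79-week replicate 1 the rectifier median was -0.14. The two-pore median lay on either side of 0 across fits (-0.15 to 0.088 with a library left out), as did that of the auxiliary genes (-0.22 to 0.10).

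**Figure D2:**
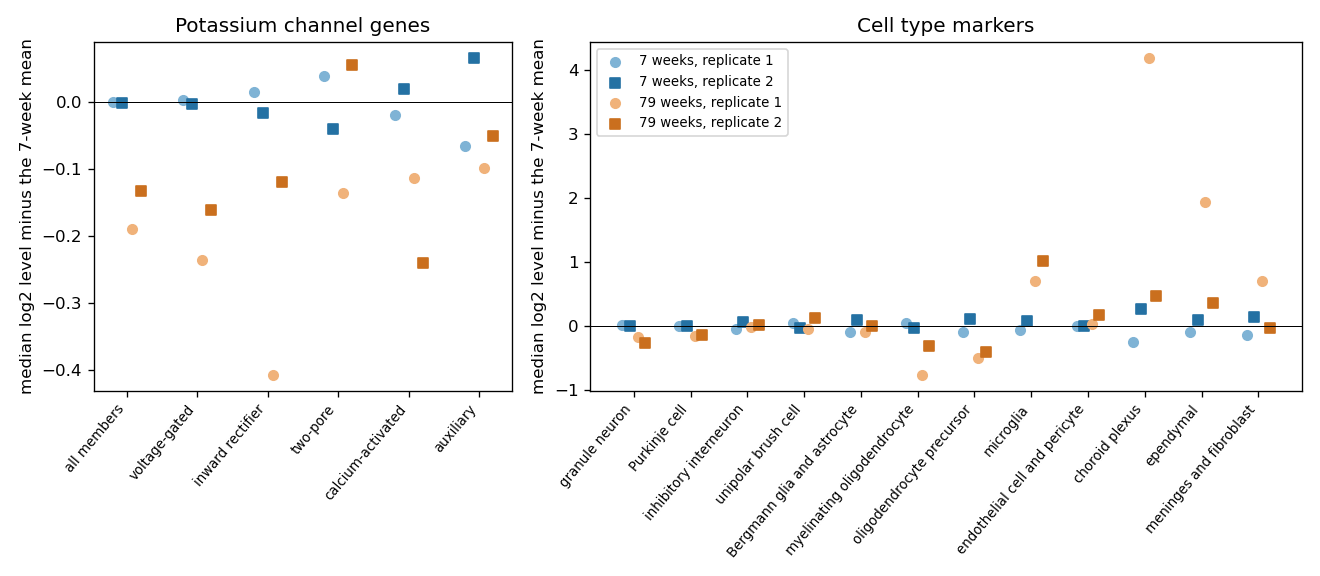
Median log2 level (log2 of CPM plus 0.5) minus the gene's 7-week mean in each library, for potassium channel classes on the left and cell type marker lists on the right. Points stand for the 4 libraries; choroid plexus markers reach 4.18 in 79-week replicate 1, and the medians of all members lie below 0 in both 79-week libraries, at -0.19 and -0.13.

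Promoter bases are shown for called genes with a single start in RefSeq, the 2 that rose and the 2 falls with the smallest p, to set genes that moved in opposite directions side by side. The 250 bases before the start are given 5′ to 3′ on the gene's strand in build GRCm38.p6, from RefSeq and matched by symbol, with GC boxes (GGGCGG on either strand) in capitals:
Kcnc4, chr3:107458899-107459148, minus strand: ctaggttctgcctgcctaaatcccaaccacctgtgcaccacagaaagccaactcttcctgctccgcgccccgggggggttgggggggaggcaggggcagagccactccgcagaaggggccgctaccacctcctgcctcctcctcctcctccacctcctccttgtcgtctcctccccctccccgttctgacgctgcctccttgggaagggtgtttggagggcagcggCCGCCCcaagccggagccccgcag
Kcnh2, chr5:24329592-24329841, minus strand: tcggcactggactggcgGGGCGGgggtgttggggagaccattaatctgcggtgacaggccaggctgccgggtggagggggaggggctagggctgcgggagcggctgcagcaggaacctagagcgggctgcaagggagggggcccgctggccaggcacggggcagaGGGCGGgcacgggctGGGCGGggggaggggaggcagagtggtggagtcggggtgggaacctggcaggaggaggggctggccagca
Kcnj12, chr11:61065554-61065803, plus strand: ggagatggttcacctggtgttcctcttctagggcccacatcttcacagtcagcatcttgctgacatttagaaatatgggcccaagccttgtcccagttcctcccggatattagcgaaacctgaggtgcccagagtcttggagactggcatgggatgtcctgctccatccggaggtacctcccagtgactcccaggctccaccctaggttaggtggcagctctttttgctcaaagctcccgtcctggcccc
Kcnd2, chr6:21215096-21215345, plus strand: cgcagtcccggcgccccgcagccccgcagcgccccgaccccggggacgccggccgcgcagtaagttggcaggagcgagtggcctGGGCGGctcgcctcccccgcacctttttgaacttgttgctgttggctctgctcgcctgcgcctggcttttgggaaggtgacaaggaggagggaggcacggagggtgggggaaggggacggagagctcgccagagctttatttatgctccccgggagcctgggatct
The GC box, which Sp-family factors bind, occurred 1 time before Kcnc4, 3 times before Kcnh2, 0 times before Kcnj12 and 1 time before Kcnd2. Over all 32851 starts 32.7% held one, as did 44.7% of the 76 starts of 53 members and 9 of the 20 starts of 14 called members, a share close to that of the members. The starts of called members had a median of 60.8% G and C in the 250 bases, against 52.4% over all starts. No such median was taken over the starts of all members, so called members were not compared with the others. The palindromic cyclic AMP response element TGACGTCA was found before 0 of the 76 member starts and before 1.55% of all starts, and TATAAA before 2.63% and 12.4%. The E box CANNTG, which basic helix-loop-helix factors bind, was before 64.5% of member starts and 66.2% of all starts. Both strands were searched. These matches describe the letters in the window only.

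Shaker-type channels, the Kv1 subfamily, open near threshold and are concentrated on axons and on the basket cell endings around Purkinje cells. Kcna1 (ENSMUSG00000047976), whose human counterpart is mutated in episodic ataxia, stood at 554 and 520.3 CPM at 7 weeks and 368 and 355 CPM at 79 weeks. Both old libraries were low and the ages did not overlap, and the level fell by 0.57 on the log2 scale (SE 0.061, adjusted p = 0.00484), the smallest p-value among the members. Kcna2, which combines with it in the same tetramers, stood at 153 and 162 CPM at 7 weeks and 119 and 122 CPM at 79 weeks and fell by 0.39 (SE 0.054, adjusted p = 0.0103). Kcna6, a further pore subunit, stood at 112 and 112 CPM at 7 weeks and 88.5 and 95.6 CPM at 79 weeks and fell by 0.28 (adjusted p = 0.0315). The Kcna6 call was lost when libraries were scaled by size alone, and it was made in 1 of 4 edgeR fits with a library left out. The 3 other members were rare: Kcna3, Kcna4 and Kcna5 were not called, at fitted log2 fold changes of 0.67, -0.38 and 0.043. Kcna3 was higher without overlap, at 3.43 and 6.47 CPM at 7 weeks and 8.08 and 7.82 CPM at 79 weeks. Kcna4 was lower without overlap. The beta subunit Kcnab1, a cytoplasmic partner that speeds inactivation of these channels, stood at 183 and 178 CPM at 7 weeks and 139.5 and 135 CPM at 79 weeks, all old values below all young ones. It fell by 0.40 (SE 0.050, adjusted p = 0.00767). Kcnab2 was lower without overlap, but was not called (-0.16, 95% interval -0.31 to -0.021, adjusted p = 0.139), and Kcnab3 overlapped between ages (interval -0.25 to 0.25). The ratio of Kcna2 to Kcna1 counts was 0.275 and 0.312 at 7 weeks and 0.323 and 0.345 at 79 weeks.

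Shaw-type channels, the Kv3 subfamily, close quickly and let neurons fire at high rates. Kcnc4 (ENSMUSG00000027895), a fast-inactivating member of the subfamily, stood at 45.9 and 58.4 CPM at 7 weeks and 105 and 99.0 CPM at 79 weeks and rose 1.95-fold, or by 0.96 on the log2 scale (interval 0.71 to 1.21, adjusted p = 0.00530). Both old libraries were above both young ones. Kcnc1, a Shaw gene of fast-spiking neurons, stood at 1147 and 1044 CPM at 7 weeks and 929 and 916 CPM at 79 weeks. Both old values lay below both young ones. The fitted difference was -0.25 (interval -0.40 to -0.092, adjusted p = 0.0612), which missed the threshold with edgeR and passed it with DESeq2 (adjusted p = 0.00297) and limma-voom (adjusted p = 0.0438). Kcnc2 was rare and not called (-0.086). A ratio of counts within a library does not depend on scaling, and such ratios are given for 7 pairs of related genes. The pairs shown as ratios were chosen after the values were seen and carry no test.

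**Figure D3:**
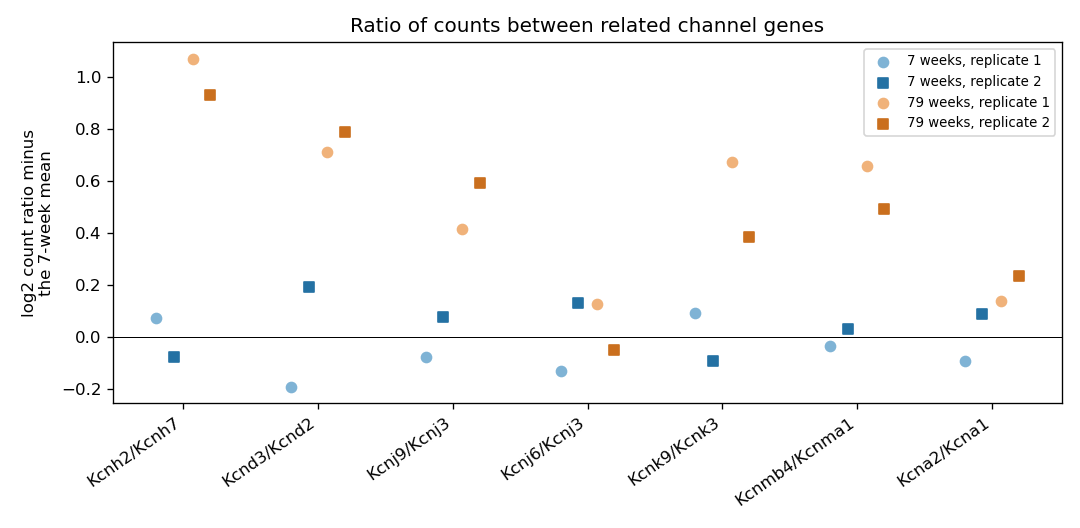
Log2 ratio of read counts between 2 related genes within a library, minus the 7-week mean, for 7 pairs. Points are the 4 libraries; Kcnd3 relative to Kcnd2 was 0.75 higher at 79 weeks, and Kcnj6 relative to Kcnj3 overlapped between ages.

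Shal-type channels, the Kv4 subfamily, carry the fast transient A-type current of dendrites and work in a complex with KChIP and dipeptidyl peptidase-like proteins. Kcnd2 (ENSMUSG00000060882), the pore subunit typical of granule neurons, stood at 423 and 404 CPM at 7 weeks and 296 and 263 CPM at 79 weeks. Both old libraries lay well below the young ones, and the level fell by 0.56 on the log2 scale (SE 0.069, adjusted p = 0.00734). Kcnd3, a second pore subunit whose human gene is mutated in a spinocerebellar ataxia, stood at 143 and 178 CPM at 7 weeks and 187 and 175 CPM at 79 weeks with overlapping ages (0.17, interval -0.053 to 0.40, adjusted p = 0.303). Its reads may include some from the antisense transcript Kcnd3os, since the strand setting is not given. The ratio of Kcnd3 to Kcnd2 was 0.338 and 0.441 at 7 weeks and 0.631 and 0.666 at 79 weeks. Of the 4 KChIP genes, which encode calcium-binding proteins that raise surface Kv4, Kcnip4 stood at 138 and 139 CPM at 7 weeks and 109.7 and 106 CPM at 79 weeks and fell by 0.36 (SE 0.051, adjusted p = 0.0106). Kcnip1 stood at 71.8 and 66.3 CPM at 7 weeks and 48.9 and 54.7 CPM at 79 weeks and fell by 0.41 (adjusted p = 0.0257). In RefSeq its span overlaps that of Kcnmb1, whose mean level was 0.67 CPM at 7 weeks and 0.59 CPM at 79 weeks. Kcnip3, also known as a calcium-dependent transcriptional repressor, was lower without overlap but not called in the main test (-0.33, interval -0.53 to -0.13, adjusted p = 0.0563), and DESeq2 called it (adjusted p = 0.0139). Kcnd1, another Shal pore subunit, overlapped between ages (-0.026). Kcnip2 was rare and not called (0.47, adjusted p = 0.346). The peptidase-like partners Dpp6 and Dpp10 were not called, at -0.043 (adjusted p = 0.743) and -0.21 (adjusted p = 0.0812).

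Kv7 channels form the M current, a slow brake on firing that acetylcholine closes. Kcnq3, a subunit of that channel, stood at 10.8 and 10.4 CPM at 7 weeks and 6.27 and 6.52 CPM at 79 weeks, with no overlap, and fell by 0.73 on the log2 scale (SE 0.15, adjusted p = 0.0306). Kcnq1 and Kcnq5 were rare and not called, at -0.45 and 0.61.

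The EAG, ERG and ELK genes (Kcnh) include the largest change among the 72 members. Kcnh3 (ENSMUSG00000037579), an ELK channel that in mouse forebrain limits excitability, stood at 6.29 and 3.81 CPM at 7 weeks and 0.518 and 0.821 CPM at 79 weeks, against 0.130 to 0.187 CPM for the limit of a count of 0. Both old libraries were far below both young ones, and the level fell by 2.88 on the log2 scale (SE 0.38, adjusted p = 0.00903). With single libraries left out the log2 fold change ranged from -3.26 to -2.49, and edgeR made the call in 3 of these 4 fits, but not when 7-week replicate 1 was dropped (adjusted p = 0.119). In RefSeq (GRCm38) the gene's span overlaps that of Mcrs1, whose log2 fold change was -0.031 (adjusted p = 0.826). Kcnh7, an ERG channel, stood at 17.2 and 19.5 CPM at 7 weeks and 11.4 and 11.9 CPM at 79 weeks and fell by 0.66 (SE 0.12, adjusted p = 0.0183). Its span overlaps Gca, which was not called (log2 fold change 0.35). Kcnh2, an ERG channel best known for cardiac repolarization, stood at 46.3 and 47.3 CPM at 7 weeks and 61.2 and 58.1 CPM at 79 weeks and rose 1.27-fold, or by 0.35 on the log2 scale (interval 0.18 to 0.51, adjusted p = 0.0268). The Kcnh2 log2 fold change ranged from 0.31 to 0.38 with a library left out. Its call was lost in edgeR when 7-week replicate 1 or 7-week replicate 2 was dropped, and DESeq2 never made it with a library left out. The same losses held for Kcnh7, Kcnq3, Kcnj6 and Kcnk12. The ratio of Kcnh2 to Kcnh7 counts was 2.69 and 2.43 at 7 weeks and 5.37 and 4.87 at 79 weeks. Kcnh1, an EAG channel, overlapped between ages (0.041, interval -0.14 to 0.23), and the rare Kcnh4, Kcnh5 and Kcnh6 were not called, at 0.94, -0.62 and 0.26. Elsewhere among voltage-gated genes, the delayed rectifier Kcnb2 was lower without overlap but not called (-0.88, adjusted p = 0.131). None of the 6 silent subunits, which form no channel alone, was called. Kcng4 stood at 219 and 174 CPM at 7 weeks and 133 and 186 CPM at 79 weeks, with overlap, and Kcnf1, Kcns1, Kcns2, Kcns3 and Kcnv2 had log2 fold changes from -0.81 to 0.41.

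**Figure D4:**
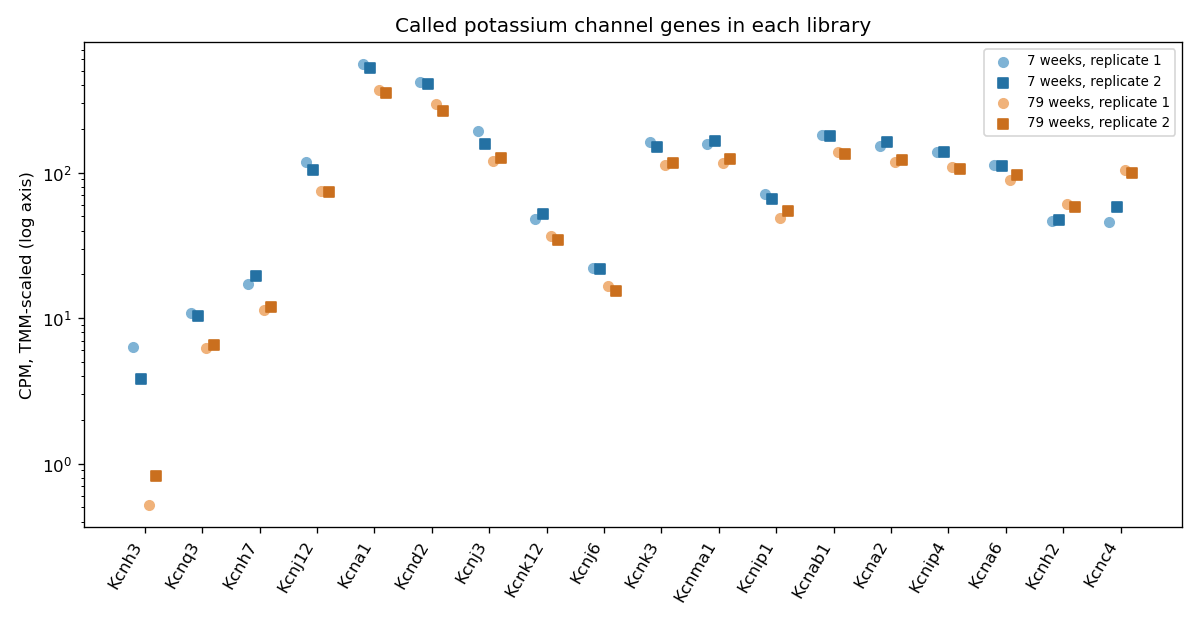
TMM-scaled CPM on a log axis in each of the 4 libraries for 18 of the 20 called genes, ordered by log2 fold change. In each gene the 2 old values lie on one side of the 2 young values, a separation set by the choice of called genes. Ages did not overlap in 57.7% of all genes tested. Kcnh3 is at 0.518 and 0.821 CPM at 79 weeks.

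Among inward rectifiers, the G protein-gated channels that neurotransmitters open were represented by Kcnj3, Kcnj6 and Kcnj9, which assemble into mixed tetramers. Kcnj3 stood at 192 and 156 CPM at 7 weeks and 121 and 127 CPM at 79 weeks and fell by 0.49 on the log2 scale (SE 0.092, adjusted p = 0.0218). Kcnj6 stood at 22.2 and 21.6 CPM at 7 weeks and 16.7 and 15.5 CPM at 79 weeks and fell by 0.45 (SE 0.096, adjusted p = 0.0327), and DESeq2 did not call it. Kcnj9 stood at 172 and 156 CPM at 7 weeks and 152 and 180.4 CPM at 79 weeks, so that the ages overlapped (0.024, interval -0.18 to 0.23). The Kcnj9 to Kcnj3 ratio was 0.895 and 0.994 at 7 weeks and 1.26 and 1.42 at 79 weeks, all old values higher, while Kcnj6 to Kcnj3 overlapped, at 0.115 and 0.138 at 7 weeks and 0.138 and 0.122 at 79 weeks. Kcnj12 (ENSMUSG00000042529), a strong rectifier that holds the resting potential, stood at 118 and 105 CPM at 7 weeks and 74.2 and 73.8 CPM at 79 weeks and fell by 0.59 (SE 0.071, adjusted p = 0.00692). Kcnj10, the main potassium-buffering channel of astrocytes and oligodendrocytes, stood at 261 and 269 CPM at 7 weeks and 196 and 255 CPM at 79 weeks and was not called (adjusted p = 0.219). The low value was in 79-week replicate 1, and without 79-week replicate 2 it was called (log2 fold change -0.44). Markers of myelinating oligodendrocytes stood at -0.77 and -0.32 log2 units from the 7-week mean in the 2 old libraries. Of these markers 5 of 12 were called lower, against 4.68% of all genes tested. Their summed levels were 6380.2 and 6001 CPM at 7 weeks and 3834 and 5395 CPM at 79 weeks. Their part in the Kcnj10 values was not tested. Kcnj16, its partner subunit, overlapped (0.072), Kcnj2, a close relative of Kcnj12, was rare and overlapped (0.21), and Kcnj8, a pericyte channel, was not called (-0.44, adjusted p = 0.349).

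Two-pore channels carry a background leak. Kcnk3, an acid-sensitive channel of granule neurons, stood at 162 and 151 CPM at 7 weeks and 114 and 116 CPM at 79 weeks and fell by 0.44 on the log2 scale (SE 0.056, adjusted p = 0.00765). Its relative Kcnk9 stood at 29.9 and 24.6 CPM at 7 weeks and 31.4 and 26.4 CPM at 79 weeks, with overlapping ages (0.087, interval -0.21 to 0.39). The ratio of Kcnk9 to Kcnk3 counts was 0.185 and 0.163 at 7 weeks and 0.277 and 0.227 at 79 weeks. Kcnk12, a member that makes little or no current when expressed alone, stood at 47.7 and 51.7 CPM at 7 weeks and 36.9 and 34.4 CPM at 79 weeks and fell by 0.48 (SE 0.082, adjusted p = 0.0169). The abundant Kcnk1 was not called (-0.18, interval -0.36 to 0.0056), nor was Kcnk10, a mechanosensitive channel (-0.28, adjusted p = 0.0946). Kcnk4, another mechanosensitive channel, stood at 0.685 and 0.676 CPM at 7 weeks and 1.55 and 2.29 CPM at 79 weeks. The fitted level was 2.82-fold higher and just missed the threshold (interval 0.62 to 2.37 on the log2 scale, adjusted p = 0.0508). Among the settings that called it were library size scaling (adjusted p = 0.0440) and the fit from which 79-week replicate 1 was dropped (adjusted p = 0.0162), while DESeq2 did not (adjusted p = 0.167). Kcnk2, Kcnk5 and Kcnk6 were not called, at 0.14, 0.48 and 0.39. Kcnk13, a channel of microglia, overlapped (-0.077, interval -0.64 to 0.48), while 9 of 12 microglial markers were called higher, against 4.17% of all genes tested. The summed level of these markers went from 148 and 163 CPM to 256 and 317 CPM.

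Calcium-activated channels link firing to calcium entry. Kcnma1, the pore of the large-conductance channel, stood at 158 and 164 CPM at 7 weeks and 117 and 123 CPM at 79 weeks, with no overlap, and fell by 0.42 on the log2 scale (SE 0.054, adjusted p = 0.00809). Its neuronal beta subunit Kcnmb4 stood at 54.1 and 58.9 CPM at 7 weeks and 64.4 and 60.9 CPM at 79 weeks. Kcnmb4 was higher without overlap but not called (0.15, interval -0.026 to 0.32). Antisense genes Kcnmb4os1 and Kcnmb4os2 overlap it and reads could not be assigned between them if strand was ignored. The rare beta subunits Kcnmb1 and Kcnmb2 were not called (-0.23 and -0.26), nor were Kcne1l and Kcne4 of the KCNE family (0.51 and 0.54). The Kcnmb4 to Kcnma1 ratio was 0.342 and 0.358 at 7 weeks and 0.552 and 0.493 at 79 weeks, higher in both old libraries. Kcnn2, the small-conductance channel of Purkinje cells, stood at 56.0 and 57.6 CPM at 7 weeks and 47.3 and 48.0 CPM at 79 weeks and was lower without overlap but not called (-0.25, interval -0.41 to -0.094, adjusted p = 0.0617). Kcnn1 and Kcnn3 were not called, at -0.28 and 0.0011. The sodium-activated channel gene Kcnt1 stood at 621 and 545 CPM at 7 weeks and 636 and 609.5 CPM at 79 weeks, overlapping (0.095, interval -0.080 to 0.27), so that a fall of the size of Kcnma1 was outside its interval. The rare Kcnt2 and Kcnu1 were not called, at 0.86 and -0.97.

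Among the channels' partners outside the Kcn family, 16 of 18 listed genes were tested, and 2 fell, 0 rose and 14 were not called, with a median log2 fold change of -0.18. The share lower was 12.5%, against 4.68% of all genes tested. Of the 11 partners with a mean of 100 CPM or more 2 fell, or 18.2%, near the 15.3% of all genes in that range. Dlg2, a scaffold that clusters Kv1 channels, stood at 301 and 302 CPM at 7 weeks and 216 and 215 CPM at 79 weeks and fell by 0.48 (SE 0.046, adjusted p = 0.00343). Jph3, a junctional protein that couples calcium release to small-conductance channels, stood at 232 and 223 CPM at 7 weeks and 171 and 189 CPM at 79 weeks and fell by 0.34 (SE 0.061, adjusted p = 0.0193). Adam22, a component of the axonal Kv1 complex, was lower without overlap (-0.21, adjusted p = 0.0590) and was not called. Cntn2, the adhesion protein beside nodes of Ranvier, overlapped between ages (554 and 528 CPM at 7 weeks and 513 and 566 CPM at 79 weeks).

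Markers of granule neurons and Purkinje cells held more falls than rises, as the channel genes did. Among 13 granule neuron markers there were 5 falls and 1 rise, and their summed level was 8305 and 8148 CPM at 7 weeks and 7136 and 6829 CPM at 79 weeks. Among 14 Purkinje cell markers there were 6 falls and 0 rises, with sums of 11372 and 11429 against 9389.6 and 9614 CPM. Itpr1 was the largest part of these sums, at 5022 and 5272 CPM at 7 weeks and 4463 and 4392 CPM at 79 weeks. The 8 Purkinje cell markers not called included Pcp2, Pcp4 and Foxp2. Of all genes tested 4.68% were lower and 4.17% higher. Of all genes at 100 CPM or more, where most of these granule and Purkinje markers lay, 15.3% were lower and 4.13% higher. Among inhibitory interneuron markers 0 of 11 were called. The median log2 fold changes of the granule, Purkinje and interneuron lists were -0.20, -0.15 and -0.012, beside -0.22 for the channel genes. No marker in these lists was at 0 in every library. Among glial precursors of oligodendrocytes, 4 of 9 tested markers fell, namely Gpr17, Neu4, Olig2 and Tnr. Pdgfra and Cspg4 were not called (0.080 and -0.21), nor were Sox6, Bmp4 and Enpp6. The part of the markers in the channel results was not tested.

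**Figure D5:**
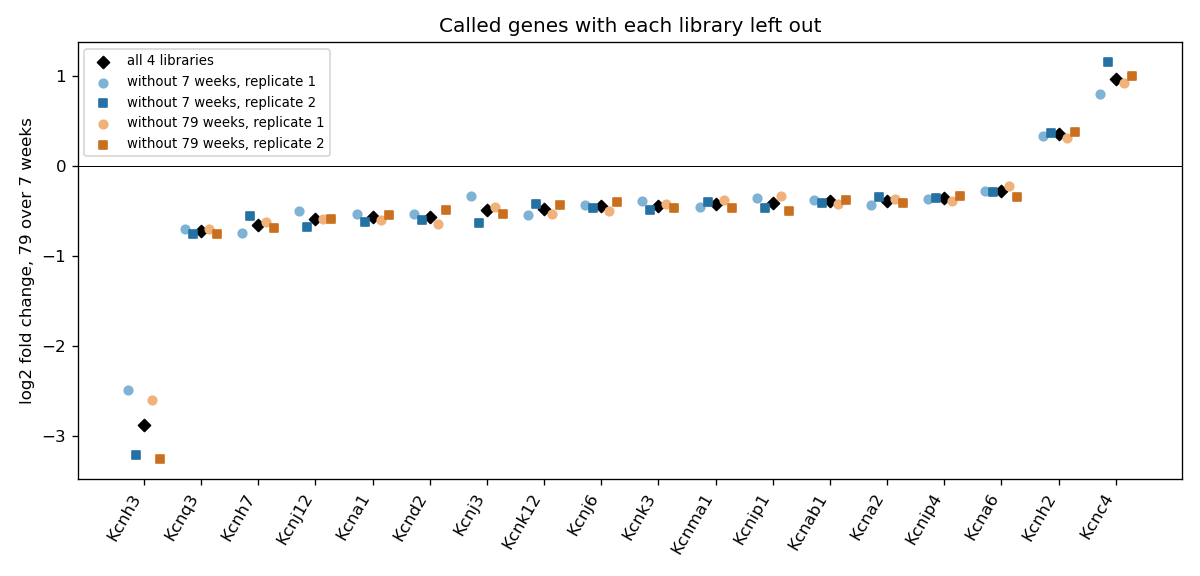
Log2 fold change (79 over 7 weeks) of 18 of the 20 called genes in edgeR with all 4 libraries (black) and with each library left out. The plot shows how far the size of each difference moves, and Kcnh3 ranges from -3.26 to -2.49; the sides of 0 are set by the choice of genes, whose ages do not overlap.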

How the data were processed

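The authors deposited raw read counts per Ensembl gene, 1 table per library. Cutadapt, STAR and HTSeq were named with build mm9, per the submitters' processing notes; the version of each, the annotation and the strand setting were not given in the sources used here. The closing HTSeq lines were kept out of library sizes. Reads in no gene made up 18.7% to 20.4% of all counts of a library, closing lines included. Multiply aligned reads made up 8.02% to 8.25%. Gene symbols, from a supplied name table, were found for 32919 of 37991 identifiers.

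Ages were compared as 79 minus 7 weeks in edgeR 4.0.16 (R 4.3.3) by the quasi-likelihood F test with no covariates, after filterByExpr (minimum count 10, minimum total 15; 15292 genes left) and TMM scaling (factors 0.9812 to 1.023). Benjamini-Hochberg adjustment covered all tested genes, at 0.05. Standard errors (SE) were derived as the absolute log2 fold change over the square root of the F statistic. The 95% intervals came from these errors and the t distribution. The test was checked on simulated data. Genes named were called members, the 3 of highest CPM per class, uncalled members with a log2 change of 1 or more, called partners, the excluded genes and those near the count threshold. The remaining members were added after their values were seen, except that 4 members are counted but not reported here singly. Members and lists were chosen with earlier results of these data known. Other settings tried were 3 scalings (RLE, upper quartile, library size alone), 3 other filters, DESeq2 1.42.0, voom in limma 3.58.1, robust dispersions, a replicate block and each library left out, where the lone library of an age is assumed to vary like the others. A crossed block and DESeq2 with each library left out were chosen after seeing the data.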

Additional observations from a re-analysis of the deposited data

How the results depend on the processing

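With 2 libraries per age, all counts of calls depended on the libraries kept. With a library left out, in edgeR or DESeq2, members called lower ranged from 0 to 22 and higher from 0 to 5. All genes called ranged from 0 to 2425, where edgeR gave 0 without 7-week replicate 1 (2610 at an unadjusted p under 0.05, and 238 by DESeq2). Voltage-gated calls ranged from 0 to 13, inward rectifier from 0 to 4, two-pore from 0 to 4, calcium-activated from 0 to 1 and auxiliary from 0 to 5. Median log2 fold changes ranged from -0.20 to -0.11 for all members, -0.33 to -0.18 for voltage-gated, -0.42 to -0.14 for inward rectifier, -0.15 to 0.088 for two-pore, -0.24 to -0.12 for calcium-activated and -0.22 to 0.10 for auxiliary genes.

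Library size scaling, the robust fit and no filter raised the members called higher from 2 to 4, 4 and 6. Without the filter all genes called were 3051, and calls were 17 voltage-gated, 5 two-pore and 2 calcium-activated genes; the robust fit also called 2 calcium-activated genes. Library size scaling moved the median of all members from -0.22 to -0.16 and of voltage-gated genes from -0.25 to -0.20, while the median of all genes was 0.064, and gave 901 genes higher and 484 lower against 637 and 715. The cause of the changes was not tested. The other class counts and medians kept within 1.5 times the main count or the spread between replicates. Replicate numbers are shared between ages but the labels do not tie them to animals. The log2 deviations of same-numbered libraries from their group means correlated at -0.116 over 14061 genes. With the replicate block 21 members were called, with the crossed block 24.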
